A study of Callithrix jacchus with 71 samples.

Results

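A set of 7 genes of telomere maintenance was followed through single marmoset cells. They are TERT and DKC1 of telomerase, and TERF1, TERF2, TINF2, POT1 and ACD of shelterin. They were chosen by name as the genes of these complexes that have a row in the deposited table of normalized counts, and all 7 of them do, among 23561 named rows. The questions were whether the cells in which TERT was not found are the shallowly sequenced ones, and whether the shelterin genes were even enough to serve as a reference.

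The table holds 71 cells of the common marmoset, each sequenced by RamDA-seq, which copies total RNA of a single cell along the length of transcripts. The 65 induced neural stem cell-like cells (iNSLCs) came from E01F A2, a clone at an early passage in the medium called NSM, made from E01F dorsal skin fibroblasts of an embryo. The vectors described for these fibroblasts are episomal and carry LIN28, L-MYC, KLF4, SOX2 and OCT4 of human origin, with mp53DD (a dominant-negative mouse p53) and EGFP, and TERT is not named among them. The pluripotent stem cells (PSCs) were 4 no. 40 ESCs, which are not derived from E01F, and 1 E01F A-2-2 iPSC. The last cell was 1 E01F fibroblast, from the starting population. The cells of each group share 1 source label and were treated as 1 culture, so no test between groups was made, and SDs are over cells.

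Chromosome ends are repeats that shorten as cells divide. Telomerase lengthens them again: TERT is the reverse transcriptase, TERC is the RNA it copies, and DKC1 is the dyskerin protein that holds the RNA in the complex. Shelterin covers the ends. TERF1 and TERF2 bind the double-stranded repeat, POT1 binds the single-stranded overhang, ACD (TPP1) holds POT1 and recruits telomerase, and TINF2 (TIN2) bridges them. In humans TERT is a gene typical of pluripotent and germ line cells and is silent in most differentiated fibroblasts.

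Depth and cell identity differed between the groups. An iNSLC had 82268 to 695241 reads on named genes (median 268128), a PSC 134328 to 1003718 and the fibroblast 1294430. Of 10 neural stem cell markers, 7 to 10 were found in each iNSLC and 3 or 4 in each PSC. Of 10 pluripotency markers, 0 to 3 were found in an iNSLC (median 0) and 9 or 10 in a PSC, and TDGF1, CDH1, PRDM14 and UTF1 had no read in any iNSLC. All 10 fibroblast markers were found in the fibroblast, 0 to 7 in an iNSLC and 3 to 7 in a PSC. By the number of markers found, the labels therefore match the lists. By summed level the neural list does not set the fibroblast apart. It had 4 of these markers at a sum of 7297 normalized counts, where the iNSLC median was 3167. The summed level of 14 cell cycle genes was 2.31 to 2490 normalized counts in iNSLCs (median 75.1), 885 to 1264 in PSCs and 173 in the fibroblast. The 3 iNSLCs that reached the lowest PSC in this sum had 0, 0 and 16.2 normalized counts of TERT. Over the 65 iNSLCs, Pearson's r of TERT with the log2 of this sum was 0.26. It was 0.45 in the iNSLCs numbered 57 or above and 0.09 in those numbered 56 or below. Whether the cell cycle has a part in the TERT level was not tested. The 38 iNSLCs numbered 57 or above and the 27 numbered 56 or below differ in profile, a division drawn after the values were seen, and had medians of 208746 and 357910 reads. Correlations are therefore also given within these sets of higher-numbered and lower-numbered cells.

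TERT was found in 41 of 65 iNSLCs (63.1%, exact Clopper-Pearson 95% interval 50.2 to 74.7%) and in all 5 PSCs. Intervals on shares cover the counting of cells within 1 culture only, and intervals on reads cover the counting of reads only, which have no molecular tags. In iNSLCs its normalized count ran from 0 to 124, with a median of 12.7 and a mean of 18.5 ± 24.4 (SD, n = 65). It was 209, 273, 186 and 188 in ESCs 10, 11, 12 and 14, and 95.1 in the iPSC. The fibroblast had no TERT read at the greatest depth of any cell. The floor of 3 reads was 2.32 RPM there (reads scaled to the total on named genes), and the exact Poisson upper limit was 2.85 RPM. The iPSC was the lowest PSC, and only iNSLC 65, at 124, reached its level. The share of all genes with as little overlap was not computed. The log2 ratio of mean normalized counts plus 1, iNSLC over PSC, was -3.29, which on the means is 10.3-fold lower in iNSLCs. Set against the floor of 3 reads in the fibroblast, the iNSLC mean was 15.2-fold higher. This rests on 1 cell, and 24 of 65 iNSLCs, among them the deepest, had no TERT read either. It therefore sets no bound on the level of fibroblasts.

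**Figure D1:**
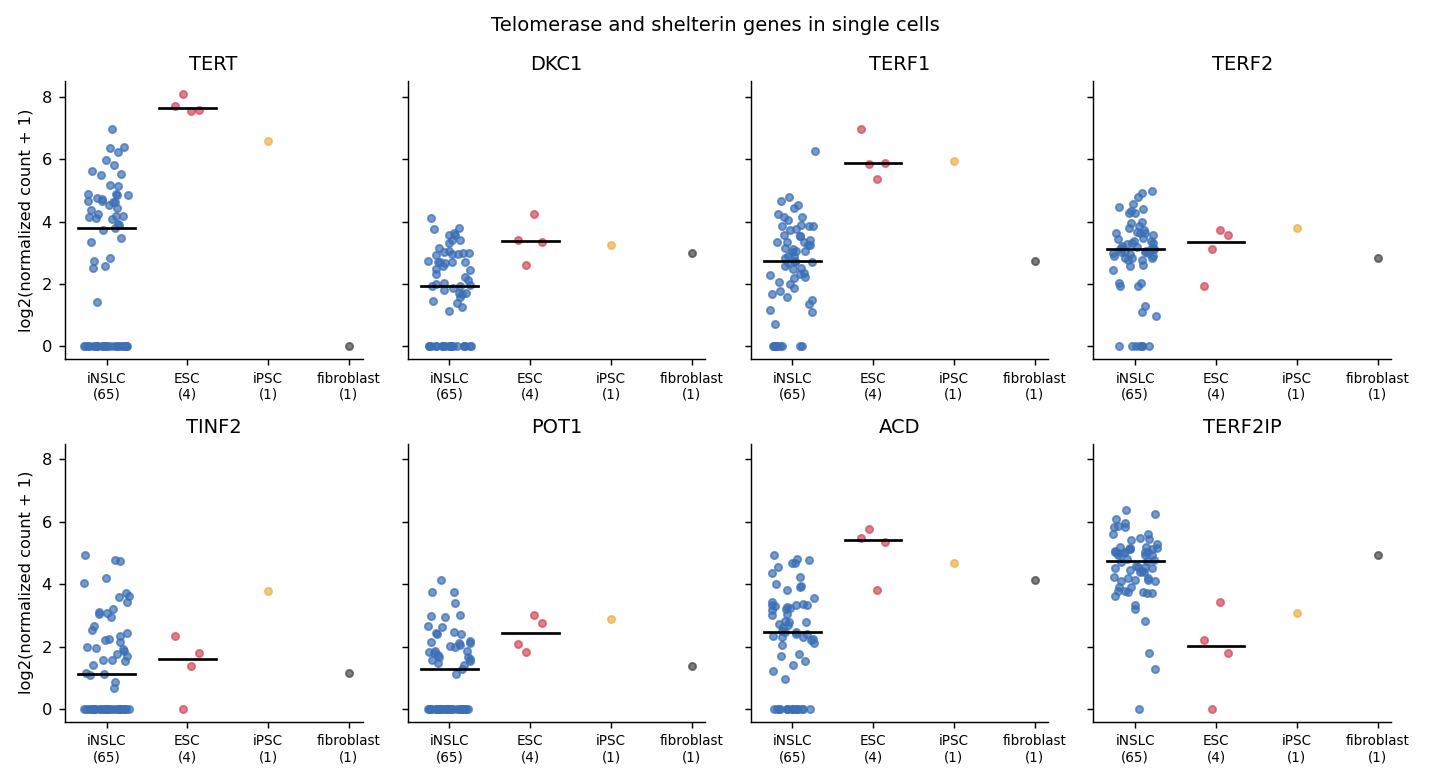
Each panel gives the log2(normalized count + 1) of 1 gene in single cells (points), for 65 iNSLCs, 4 ESCs, 1 iPSC and 1 fibroblast, with group medians as bars. TERT and TERF1 of the PSCs lie above all but 1 iNSLC each, while TERF2 overlaps.

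In no iNSLC did the detection of TERT rest on 1 read. Among the cells with TERT, 13 cells had 2 to 9 and 28 had 10 or more, up to 167 in iNSLC 55. These 41 cells had a median of 20 reads, and the 3 cells with most reads held 32.7% of the 1101 TERT reads.

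By reads on named genes, the iNSLCs without TERT were not the shallow ones. The deepest iNSLC of all (695241 reads) had no TERT read, and the shallowest (82268 reads) had TERT reads. Of the 24 iNSLCs without TERT, 11 lay below the median depth and 13 at or above it. In order of depth, TERT was found in 16 of 22 (72.7%), 13 of 22 (59.1%) and 12 of 21 (57.1%) iNSLCs, with intervals that overlap. Within the sets by cell number, it was found in 73.7% of the shallower and 68.4% of the deeper higher-numbered cells, and in 57.1% of the shallower and 46.2% of the deeper lower-numbered cells. The level of TERT had little relation to reads over the 65 cells (Pearson's r = -0.12, cells of 1 culture that share depth scaling). It was 0.13 in the higher-numbered and -0.16 in the lower-numbered cells. With the number of genes found in a cell, r was 0.32 over the 65 cells. Within the sets it was 0.32 in the higher-numbered and 0.20 in the lower-numbered cells, and the part of this measure was not tested.

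Expected detection was also computed from the reads, as a description that treats each read as independent. Reads of RamDA-seq are amplified copies without tags, so these values cover read counting only and tend towards full detection. If the pooled rate of each gene had held in every cell, 65.0 iNSLCs would have had a TERT read, where 41 had one. All other members had fewer cells than at an even rate too: 44 against 60.9 for DKC1, 55 against 64.7 for TERF1, 58 against 64.6 for TERF2, 36 against 61.6 for TINF2, 34 against 57.4 for POT1 and 49 against 63.6 for ACD. With 58 iNSLCs thinned to 129629 reads each, TERT was expected in 61.1% of them, against 62.1% at full depth, and it was still expected in all 5 PSCs. Each of the other members had a larger drop, from the smallest for TERF2 (87.1% thinned, 91.4% at full depth) to the largest for TINF2 (49.7% and 60.3%).

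**Figure D2:**
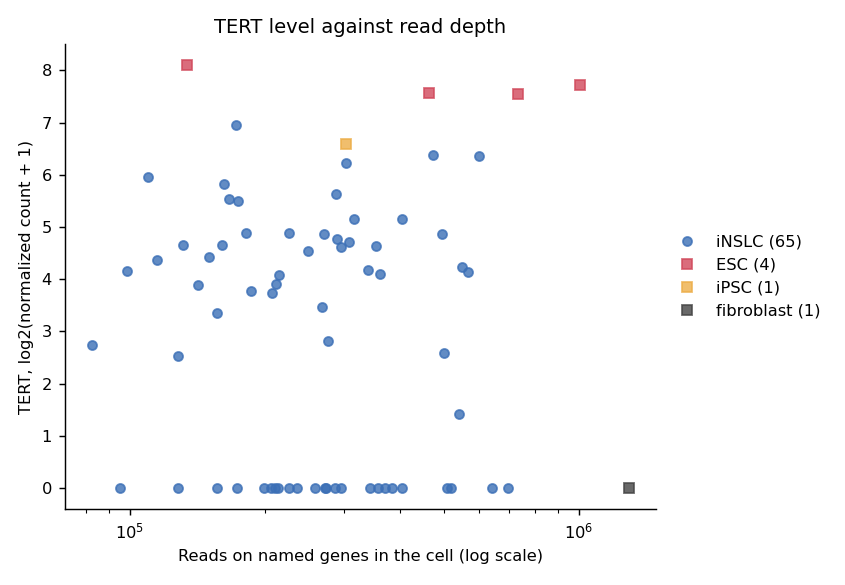
The TERT level, as log2(normalized count + 1), is plotted against the reads on named genes in each cell (log scale), with iNSLCs, ESCs, the iPSC and the fibroblast in separate colours. The iNSLCs without a TERT read are found at all depths up to 695241 reads.

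TERT was detected in fewer iNSLCs than most genes above a fixed mean normalized count, a scale not corrected for transcript length. Of 6118 genes whose mean in iNSLCs reached 10 normalized counts, the median share of cells with a read was 96.9%, and 1.36% of them had a lower share than TERT. Its coefficient of variation was 1.32 against a median of 0.734, and 4.61% of those genes had a higher one. This set has no upper limit and takes in genes far above the TERT mean of 18.5, such as GAPDH at 2794. With the limit lowered to 1, which lets in genes of lower mean, 13603 passed, at medians of 80% and 1.05. Of these, 32.6% had a lower share than TERT and 34.7% a higher coefficient of variation. The standing of TERT thus depends on the limit, and genes of similar mean were not compared. TERT was weakly related to other members over the 65 cells, with r from -0.16 to 0.12 (from -0.16 to 0.28 in the higher-numbered and from -0.19 to 0.00 in the lower-numbered cells). By the rule for likeness, 3 genes had the highest r among 11440. They were RARG (retinoic acid receptor gamma), LIG1 (DNA ligase 1) and PXMP2 (a peroxisomal membrane protein). Over the 65 cells their r was 0.57, 0.53 and 0.53, and the median of all genes was 0.07. It was 0.43, 0.40 and 0.44 in the higher-numbered cells, and 0.70, 0.64 and 0.59 in the lower-numbered cells.

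Among the 6 iNSLCs with most TERT, 3 had a read of 1 pluripotency marker and 3 had none, where the median iNSLC had none. The share of all iNSLCs with such a read was not computed, so no enrichment can be read from these 6 cells. In iNSLCs 65, 77, 55, 93, 31 and 72, with TERT levels of 124, 82.3, 80.5, 73.8, 61.4 and 55.4 normalized counts, the only pluripotency marker found was POU5F1, in cells 65, 55 and 93. Its level in iNSLC 93, 117 normalized counts, is also the highest sum of the pluripotency markers in any iNSLC. POU5F1 (OCT4) is also carried by the vectors, and how the reads of the vector and of the gene were counted was not tested.

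DKC1 was found in 44 of 65 iNSLCs (67.7%) at a mean of 3.88 ± 3.97 normalized counts (SD, n = 65; median 2.82, highest 16.1). It was 9.72, 5.11, 17.8 and 9.16 in ESCs 10, 11, 12 and 14, 8.55 in the iPSC and 6.88 in the fibroblast. The ranges overlap widely, with 23 iNSLCs at or above the lowest PSC. The log2 ratio of -1.18 passed 2-fold only narrowly and was -0.91 without ESC 12. The genes most like DKC1 over the 65 iNSLCs were PPP3CA, SRSF2 and NDC1 (r = 0.43, 0.42 and 0.42, median of all genes 0.00). Their r was 0.40, 0.35 and 0.50 in the higher-numbered cells, and 0.43, 0.47 and 0.28 in the lower-numbered cells.

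TERF1, the first of the shelterin genes, also had a clear gap. It was found in 55 of 65 iNSLCs (84.6%) at 0 to 75.6 normalized counts, with a median of 5.65 and a mean of 8.24 ± 10.6 (SD, n = 65). The ESCs 10, 11, 12 and 14 had 124, 56.2, 40.5 and 58.3, the iPSC had 59.8 and the fibroblast had 5.67. A single iNSLC, 56, reached the PSC range, at 75.6, and the next iNSLC was at 26.5. As for TERT, the share of all genes that overlap as little was not computed. The log2 ratio was -2.89, or 8.22-fold lower in iNSLCs on the means, and the iNSLC mean was near the value of the fibroblast.

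TERF2, the partner of TERF1 on the double-stranded repeat, did not share that gap. It was found in 58 of 65 iNSLCs (89.2%), at a mean of 8.94 ± 6.95 normalized counts (SD, n = 65; median 7.69, highest 30.4). The ESCs 10, 11, 12 and 14 had 2.83, 7.66, 12.4 and 10.8, the iPSC 12.8 and the fibroblast 6.07. Its log2 ratio was -0.05, and 54 iNSLCs lay at or above the lowest PSC.

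TERF2 was also the most even member over iNSLCs, with a coefficient of variation of 0.778. Shelterin as a whole was not an even reference. TERF1 and ACD were several-fold lower in iNSLCs than in PSCs, and the reads of TINF2 and POT1 were missing from many cells, and their coefficients of variation, 1.68 and 1.46, were above the 1.32 of TERT. A coefficient of variation grows as reads become few, so this order describes the counts and not the transcripts.

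TINF2 was found in 36 of 65 iNSLCs (55.4%) at a mean of 3.92 ± 6.59 normalized counts (SD, n = 65; median 1.19). The ESCs 10, 11, 12 and 14 had 4.05, 0, 1.62 and 2.50, the iPSC 12.8 and the fibroblast 1.21. On the log2 scale the ratio was -0.08, and it was 0.69 without the iPSC. Detection grew with depth, at 31.8%, 63.6% and 71.4% of iNSLCs in the 3 depth classes, from shallow to deep.

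POT1 was found in 34 of 65 iNSLCs (52.3%) at a mean of 2.35 ± 3.42 normalized counts (SD, n = 65; median 1.45). The ESCs 10, 11, 12 and 14 had 3.24, 2.55, 7.02 and 5.83, the iPSC 6.41 and the fibroblast 1.62. Its ratio of -0.85 on the log2 scale, with 1 added to the means, did not reach 2-fold. On the means alone POT1 was 2.14-fold lower in iNSLCs, and a pseudocount of 0.1 gave -1.06. Its detection was 31.8%, 50.0% and 76.2% in the same classes (7 of 22, 11 of 22 and 16 of 21 cells), and its mean normalized count was 1.10, 2.41 and 3.58. These classes mix the sets by cell number. Within the higher-numbered cells POT1 was found in 31.6% of the shallower and 47.4% of the deeper cells, and TINF2 in 36.8% and 84.2%. Within the lower-numbered cells the shares were 57.1% and 84.6% for POT1 and 35.7% and 61.5% for TINF2.

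**Figure D3:**
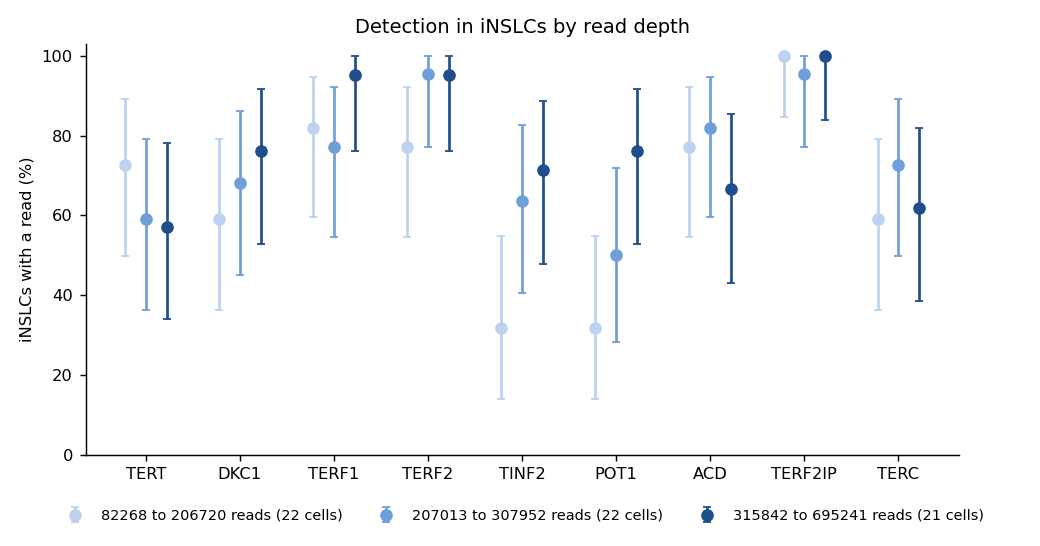
The share of iNSLCs with a read (%) is shown for each gene in 3 classes of cell depth (22, 22 and 21 cells), with exact Clopper-Pearson 95% intervals. POT1 was found in 31.8% of the shallowest and 76.2% of the deepest class, and TERT in 72.7% and 57.1%.

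ACD was found in 49 of 65 iNSLCs (75.4%) at 0 to 29.7 normalized counts, with a mean of 7.01 ± 7.66 (SD, n = 65; median 4.59). The ESCs 10, 11, 12 and 14 had 43.3, 53.6, 13.0 and 40.0, the iPSC 24.6 and the fibroblast 16.6. The iNSLC range overlapped the PSC range, with 12 iNSLCs at or above ESC 12, the lowest PSC. Of these, iNSLCs 74, 84, 95 and 96, at 26.3, 27.2, 24.8 and 29.7, also lay above the iPSC. None reached ESCs 10, 11 or 14. The log2 ratio was -2.16.

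ACD and POT1, which work together on the overhang, differed in opposite directions between the sets of iNSLCs by cell number. Over 65 cells r was -0.31 for ACD with POT1, but only -0.10 within the higher-numbered and -0.15 within the lower-numbered cells. For ACD with TINF2 r was 0.36 over all cells, 0.45 within the higher-numbered and 0.33 within the lower-numbered cells. Detection of ACD was 94.7% in the cells with the higher numbers and 48.1% in those with the lower numbers, while that of POT1 was 39.5% and 70.4%. TERT lay between these extremes, at 71.1% of the higher-numbered and 51.9% of the lower-numbered cells. Over 13603 genes the median difference was 4.78 percentage points, 0.198% of genes had a difference as high as that of ACD, and 0.419% one as low as that of POT1. The higher-numbered cells had fewer reads but more genes found per cell (median 11333.5 against 10061). Over the 65 cells ACD had an r of 0.48 with genes found and -0.06 with log2 reads. Within the higher-numbered and lower-numbered cells it was 0.35 and 0.34 with genes found, and 0.34 and 0.27 with log2 reads. For POT1 r was 0.05 with genes found and 0.39 with log2 reads over the 65 cells. Within the same sets it was 0.28 and 0.16 with genes found, and 0.30 and 0.24 with log2 reads. The part of reads and of genes found in these differences was not tested.

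In all, 4 of the 7 members were at least 2-fold lower in iNSLCs than in PSCs (TERT, TERF1, ACD and DKC1), where 30.4% of 16269 genes were. None were at least 2-fold higher, where 15.2% of genes were. The members' median log2 ratio was -1.18, against -0.37 over all genes, and all 7 passed the filter of a mean of at least 1 in either group. Against the fibroblast, 1 member was at least 2-fold lower (ACD, where 26.5% of 15181 genes were) and 2 were at least 2-fold higher (TERT and TINF2, where 26.1% were). TINF2 rested on 3 reads in the fibroblast, 2.32 RPM with an exact Poisson interval of 0.478 to 6.77. An iNSLC had reads for 2 to 7 members (median 5) and a PSC for 6 or 7. Every iNSLC had reads of at least 2 of the 6 shelterin subunits, and all 6 were found in 12.

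The sixth shelterin subunit, TERF2IP (RAP1, which binds TERF2), is not a member of the set, and its group means differed in the direction opposite to TERF1. It was found in 64 of 65 iNSLCs at a mean of 28.1 ± 17.2 normalized counts (SD, n = 65), against 3.64, 0, 9.72 and 2.50 in ESCs 10, 11, 12 and 14 and 7.48 in the iPSC, with 29.5 in the fibroblast. The log2 ratio was 2.36, 6.03-fold higher on the means, and 59 iNSLCs lay above the highest PSC. How many of all genes part as far was not computed. Among iNSLCs alone TERF1 and TERF2IP were weakly and positively related (r = 0.28 over 65 cells, 0.27 in the higher-numbered and 0.29 in the lower-numbered cells).

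**Figure D4:**
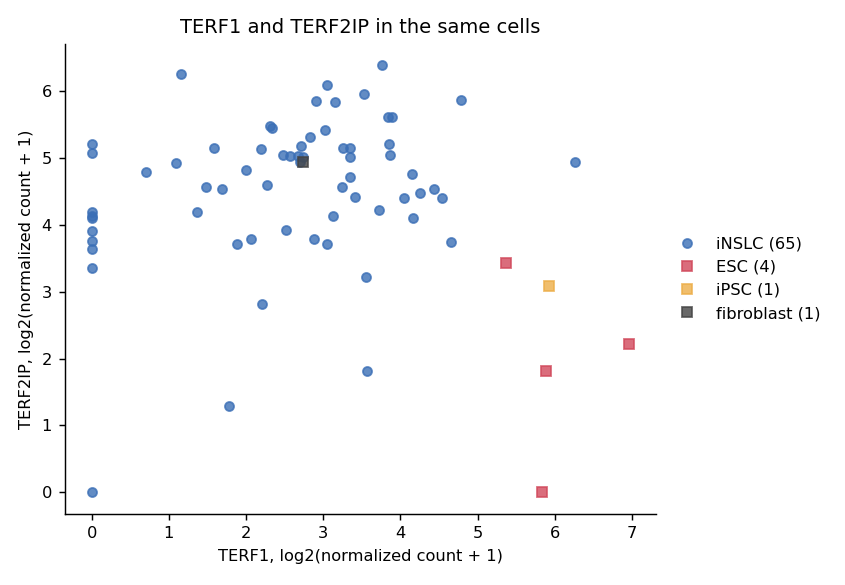
TERF2IP is plotted against TERF1 in the same cells, both as log2(normalized count + 1). PSCs sit at high TERF1 and low TERF2IP and 59 iNSLCs have more TERF2IP than any PSC, with the fibroblast among the iNSLCs.

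The wider pathway list has 25 genes, of which 24 passed the filter. Of these 12 were at least 2-fold lower in iNSLCs, 1 was at least 2-fold higher and 11 lay between, at a median log2 ratio of -1.005, where 30.4% of all genes were at least 2-fold lower and 15.2% at least 2-fold higher. The genes for telomerase assembly and RNA biogenesis held 6 of the lower ones among 8, and the genes of telomere partners and processing held 6 among 11, which are too few to be read against that share. The lowest ratios were -1.93 for DAXX (a histone chaperone that works with ATRX at telomeres), -1.89 for SLX4 (a nuclease scaffold), -1.81 for NHP2 (a partner of DKC1 on the RNA) and -1.61 for RUVBL1 (an ATPase of telomerase assembly). Single PSCs varied widely in these genes. DAXX ran from 4.05 normalized counts in ESC 10, below the iNSLC mean of 6.34, to 58.3 in ESC 12. The PSC ranges were 17.3 to 108 for SLX4, 0 to 29.2 for NHP2 and 12.5 to 51.3 for RUVBL1. The highest after TERF2IP were 0.74 for TNKS2 and 0.67 for TNKS, the tankyrases, which in human cells release TERF1 from telomeres. GAR1, the next in order, had 1 read over all PSCs and did not pass the filter, so its ratio is not given.

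The telomerase RNA gene TERC was found in 42 of 65 iNSLCs (64.6%) at a mean of 3.71 ± 4.98 normalized counts (SD, n = 65), against 2.43, 10.2, 2.16 and 1.67 in ESCs 10, 11, 12 and 14 and 4.27 in the iPSC. The fibroblast had no TERC read. The log2 ratio was -0.13, against -3.29 for TERT, and its sign was not fixed, since it was 0.38 without ESC 11, where TERC rested on 4 reads, and 0.02 in RPM. The higher-numbered iNSLCs, at a mean of 5.45 normalized counts, gave 0.32, and the lower-numbered ones, at 1.27, gave -1.18. TERT and TERC had an r of 0.05 over iNSLCs, -0.17 in the higher-numbered and 0.11 in the lower-numbered cells. For ACD with TERC r was 0.49 over all iNSLCs, 0.37 in the higher-numbered and 0.18 in the lower-numbered cells, and both genes were found more often in the higher-numbered set (TERC in 78.9% against 44.4%).

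**Figure D5:**
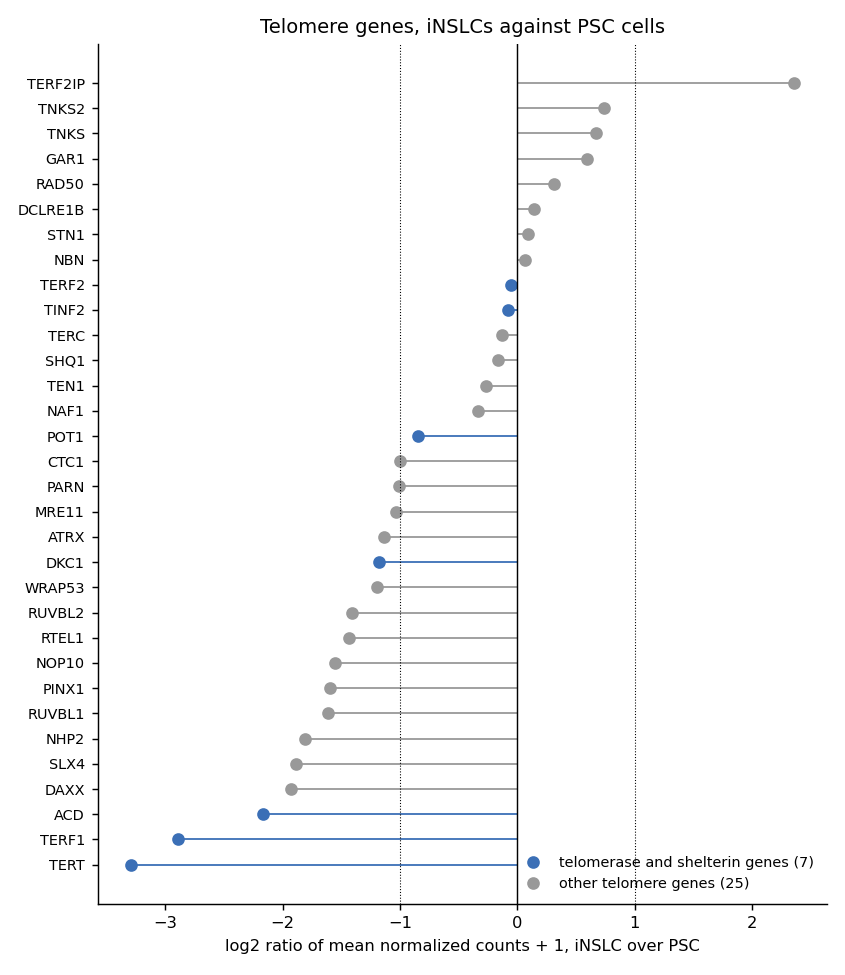
The log2 ratio of mean normalized counts plus 1, iNSLC over PSC, is drawn for the members and the pathway list, with the 2-fold limits marked. TERT (-3.29), TERF1 (-2.89) and ACD (-2.16) lie farthest to the left, and TERF2IP (2.36) farthest to the right.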

How the data were processed

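The authors deposited a signal per gene and cell, counts of RamDA-seq reads divided by a factor for the cell. Tools listed in the submitters' processing notes are Seurat 3.0.0, featureCounts 1.5.1, STAR 2.6.0c and Trimmomatic. Build and annotation: not given in the sources used here. Reads were recovered from the step of each cell: 100% of non-zero values lay within 0.02 of a whole number (largest deviation 0.00116). The row without a gene name, at most 0.449% of a cell, was left out.

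Values were computed with Python 3.11.15, pandas 2.3.3, numpy 2.4.6 and scipy 1.17.1 and drawn with matplotlib 3.10.9. Ratios are of mean normalized counts plus 1, for genes with a mean of at least 1 in either group, and called means 2-fold. This scale understates the change of low genes. Cells of a group share a culture, so no count test was run. Shares have exact Clopper-Pearson intervals at 95%. Detection was also computed for an even rate of reads and after hypergeometric thinning, and steps were tested on simulated data. Transcript lengths were not used, so no gene is called more abundant than another; shares and coefficients of variation are set beside those of other genes on the normalized count scale.

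Every member was named, with the genes of the 4 highest and 4 lowest ratios of the pathway list. Of these, GAR1 did not pass the filter and is given without its ratio. TERC was described in addition, after its values were seen. The members and lists were chosen with earlier results of these data known. Alternatives were pseudocounts of 10 and 0.1, RPM (reads scaled to the total on named genes), medians, detection limits, cell subsets and leaving out each PSC. A limit of 10 reads and the iNSLCs with a cell cycle sum at or above the lowest PSC were added after seeing the data. So were the alternatives for TERF2IP and TERC.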

Additional observations from a re-analysis of the deposited data

Results flagged for a closer look

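Of 38 features examined over the 4 ESCs, 5 had an ESC apart from the rest by Dixon's criterion, and chance gives about 1 in 20. ESC 11, the shallowest, was lowest for WRAP53 (2.55 normalized counts, others 28.3 to 28.7) and RUVBL2 (7.66, others 86.6 to 88.5), and highest for TERC (10.2, others 1.67 to 2.43). ESC 12 was highest for GAPDH (1518, others 143 to 193). ESC 10 had the only GAR1 read of the ESCs (0.405, others 0). No member had an ESC apart by this criterion.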

How the results depend on the processing

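Across the alternatives 149 values moved by less than the spread over cells or the counting interval, and 12 moved further. The share of iNSLCs with TERT was 43.1% when 10 reads were required. A pseudocount of 10 gave log2 ratios of -0.53 for DKC1, -2.09 for TERF1 and -0.28 for POT1. Medians gave -1.48 for POT1. The iNSLCs numbered 56 or below gave -0.31 for POT1 and -3.25 for ACD, and those numbered 57 or above gave -1.40 for POT1. The 3 iNSLCs with a cell cycle sum at or above the lowest PSC gave -4.91 for TERT, -2.26 for TERF1 and 0.36 for POT1. The cause was not tested. From 3 to 5 members were at least 2-fold lower over the alternatives. Scaling to RPM moved the median over 8191 genes by 0.28, and with it DKC1 was at -0.95. The sign of TERF2 and TINF2 changed with the setting, within -0.44 to 0.45 for TERF2 and -0.68 to 0.69 for TINF2. TERC, recomputed after seeing the data, was at -1.18 in the iNSLCs numbered 56 or below and at 0.38 without ESC 11, and TERF2IP stayed at 1.38 or above. Detection of TINF2 and POT1 was higher in deeper cells, and depth moves with cell number.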

Other observations

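Over the 65 iNSLCs, r of TERT with the log2 cell cycle sum was 0.26. It was 0.45 in the iNSLCs numbered 57 or above and 0.09 in those numbered 56 or below. For TERF1 r was 0.35 (0.34 and 0.37 in the same sets), and for DKC1 it was 0.15 (0.53 and -0.25). TERF2, TINF2, POT1 and ACD had an r of 0.02, 0.07, 0.10 and 0.03 over the 65 iNSLCs.

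Of the 3 genes of the CST complex, which helps to fill in the telomere end, none was at least 2-fold apart between iNSLCs and PSCs, but CTC1 lay on the limit at a log2 ratio of -0.997. Over all genes 30.4% were at least 2-fold lower and 15.2% at least 2-fold higher, so a count over 3 genes says little.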
